A study of Mus musculus with 82 samples.

Results

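The genes described here encode the proteins of the mitochondrial ribosome. Members were the protein-coding genes of the deposited RPKM table whose symbol opens with Mrpl or Mrps and a number. This rule found 78 genes among 27515 in the count table. Of these, 51 encode proteins of the large subunit and 26 of the small subunit, and Mrps36 was assigned to neither. The rule goes by name and not by structure, so Mrps18a and Mrps30, whose products sit in the large subunit, were counted there. Subunits with other names, such as Dap3, were kept as a separate list.

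The samples are 82 pieces of the suprachiasmatic nucleus (SCN), the brain's main circadian clock in the hypothalamus, from C57BL/6 mice aged 8 weeks. Tissue was stained with cresyl violet and laser-captured in hexagons of up to 40 µm radius, each of which gave 1 Smart-seq2 library. Every hexagon has 3 labelled coordinates (dorsal-ventral, medial-lateral and anterior-posterior), without unit or direction, and the labels give neither treatment nor genotype. Animals, their sex and the time of collection are not labelled. Since several hexagons may come from 1 animal, the p-values below are too small, and they reflect the spread among hexagons alone. The 9 anterior-posterior positions, numbered as sections 1 to 9 from the lowest coordinate (47) to the highest (431), held 4, 6, 12, 14, 12, 14, 13, 6 and 1 hexagons. A letter in the description label, read here as a library set, follows the sections. Sections 1 and 2 are set A, section 3 is set B, and sections 8 and 9 are set H. Sections 4, 5, 6 and 7 each hold 2 sets (C and D, D and E, E and F, F and G), and inside each of them the later set lies at the higher medial-lateral coordinates. In section 6 set F spans 1285 to 1507 and set E 1141 to 1276, and in section 7 the ranges of the sets meet at 1178. Library set and medial-lateral position are therefore partly mixed.

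Mitochondria carry their own ribosomes, which translate the few messenger RNAs of the mitochondrial genome into core subunits of the respiratory chain and ATP synthase. The proteins of these ribosomes are encoded in the nucleus, made in the cytosol and imported. Some descend from proteins of the bacterial ribosome, and others were added in the mitochondrial lineage. Here 46 members have a bacterial counterpart and 31 are mitochondria-specific.

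Library totals lay between 11905 and 2843366 counts with a median of 542267.5, and 5 libraries fell below the median divided by 3. The members took 0.379% of all counts. In the hexagon fits 76 members were tested, which needs 10 or more counts in 10 or more libraries. Mrpl53 and Mrps34 did not pass. Among 10 SCN neuron markers all were detected, with a summed level of 4779 ± 3910 CPM (counts scaled to a library of 1000000, SD, n = 82), and the library of section 4 replicate 4 held 11905 counts and 9 detected members.

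Short letter motifs in the promoters are one feature that the choice of members did not use. RefSeq windows from 250 bases before to 50 after a gene's start (build GRCm38.p6) were found for 69 of 78 members, with 75 windows in all. The 3 motifs searched are known from nuclear genes for mitochondrial proteins, and were looked for on both strands. They were CCGGAAG for ETS factors such as GABPA, GCGCA, any base and GCGC for NRF1, and AAGATGG for YY1. The ETS motif was in a window of 26 members (37.7%), against 13.3% of 16395 protein-coding genes with a window and 9.93% of all 27025 genes in the promoter table. The NRF1 motif was in 13 members (18.8%), against 7.47% and 5.19% of those backgrounds. The YY1 motif was in 13 members (18.8%), against 7.26% and 7.28%. At least 1 of the 3 was in 43 members (62.3%), against 24.7% and 20.03%. An ETS match can run into a YY1 match, since the first ends and the second opens with AAG. A match is a description of letters and not a binding site.

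The windows below are those of members described further on, written 5′ to 3′ in the direction of transcription, with motif letters in capitals. Mrps21 holds an ETS and an NRF1 motif, Mrps12 and Mrps18a an ETS and a YY1 motif, and 1 of the 4 windows of Mrpl48, at a start inside the gene, an ETS motif. The windows of Mrps6 and Mrpl41 hold none of the 3.

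Mrps21 (chr3:95871465-95871764, minus strand): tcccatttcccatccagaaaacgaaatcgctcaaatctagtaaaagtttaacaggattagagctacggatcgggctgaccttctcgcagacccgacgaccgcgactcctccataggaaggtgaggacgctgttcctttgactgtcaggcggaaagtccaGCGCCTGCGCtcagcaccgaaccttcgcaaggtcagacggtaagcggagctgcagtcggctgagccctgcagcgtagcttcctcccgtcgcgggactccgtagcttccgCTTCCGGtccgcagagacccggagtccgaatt

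Mrps12 (chr7:28741772-28742071, minus strand): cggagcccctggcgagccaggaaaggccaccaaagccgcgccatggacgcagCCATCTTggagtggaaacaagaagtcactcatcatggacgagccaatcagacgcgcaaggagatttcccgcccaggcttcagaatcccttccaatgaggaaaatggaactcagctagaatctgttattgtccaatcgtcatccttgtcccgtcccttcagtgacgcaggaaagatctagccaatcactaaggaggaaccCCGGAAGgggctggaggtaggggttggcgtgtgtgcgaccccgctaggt

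Mrps18a (chr17:46110754-46111053, plus strand): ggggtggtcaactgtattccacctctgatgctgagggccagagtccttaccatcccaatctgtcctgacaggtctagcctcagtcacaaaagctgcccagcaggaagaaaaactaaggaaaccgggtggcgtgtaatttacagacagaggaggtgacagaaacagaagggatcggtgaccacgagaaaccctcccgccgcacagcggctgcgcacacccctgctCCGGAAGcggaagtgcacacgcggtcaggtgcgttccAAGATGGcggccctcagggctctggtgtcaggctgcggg

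Mrpl48 (chr7:100583081-100583380, minus strand): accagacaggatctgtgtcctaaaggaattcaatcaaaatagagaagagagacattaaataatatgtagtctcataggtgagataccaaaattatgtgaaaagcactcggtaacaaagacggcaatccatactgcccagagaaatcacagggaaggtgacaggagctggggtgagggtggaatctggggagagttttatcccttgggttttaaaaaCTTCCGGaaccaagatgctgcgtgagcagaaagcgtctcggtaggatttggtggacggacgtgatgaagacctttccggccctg

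Mrps6 (chr16:92058086-92058385, plus strand): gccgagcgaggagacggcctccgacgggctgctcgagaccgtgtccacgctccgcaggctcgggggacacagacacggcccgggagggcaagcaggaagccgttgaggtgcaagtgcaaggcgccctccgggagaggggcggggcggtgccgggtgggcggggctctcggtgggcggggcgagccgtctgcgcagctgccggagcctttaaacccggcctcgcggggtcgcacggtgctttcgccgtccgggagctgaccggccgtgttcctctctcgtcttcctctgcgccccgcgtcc

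Mrpl41 (chr2:24975049-24975348, minus strand): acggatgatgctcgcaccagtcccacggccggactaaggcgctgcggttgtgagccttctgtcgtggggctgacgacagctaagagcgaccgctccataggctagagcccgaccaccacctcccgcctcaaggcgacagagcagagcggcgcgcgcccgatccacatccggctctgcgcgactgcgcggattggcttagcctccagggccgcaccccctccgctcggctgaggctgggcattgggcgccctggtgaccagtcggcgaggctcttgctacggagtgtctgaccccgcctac

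A window without a match says only that these letters are not in these bases.

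Members were moderately expressed, with a wide range among genes whose proteins are built into the same particle. The median member had a mean of 18.5 RPKM (reads per kilobase of gene length, scaled to library size), against a median of 7.82 RPKM for the 11460 tested genes of the RPKM table. Of the 76 tested members, 63 lay above that median. A mean between 10 and 50 RPKM was seen for 54 of 78 members, one above 50 for 5, and one from 1 to 10 for 17. Detection was broad, since 69 members had counts in 79 or more of 82 libraries and 6 in every library.

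Mrpl41, a mitochondria-specific protein of the large subunit, stood highest. Its level was 206 ± 84.5 RPKM (SD, n = 82), with a lowest, median and highest hexagon of 0, 189 and 457 RPKM. The next was Mrps21 (bS21m), a small-subunit protein with a bacterial counterpart, at 72.0 ± 28.8 RPKM and a range of 11.4 to 228. Mrpl54, a mitochondria-specific protein of the large subunit, had 66.6 ± 25.7 RPKM. Mrpl27 (bL27m) had 63.3 ± 29.7 RPKM and Mrps6 (bS6m) 56.6 ± 28.3 RPKM. These 4 overlap in their spread over hexagons, while the mean of Mrpl41 exceeded that of Mrps21 by more than the SD of either.

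At the other end stood members with much lower RPKM. Mrps35 had 3.15 ± 1.75 RPKM, Mrps30 (mL65 of the large subunit) 3.67 ± 3.02 RPKM and Mrpl47 (uL29m) 4.58 ± 4.22 RPKM (SD, n = 82 each). Mrpl12, whose bacterial relative forms the stalk of the large subunit and is present in more than one copy per ribosome, had 5.86 ± 4.07 RPKM and ranked 73 of 78. In CPM, which is not divided by gene length, Mrps35, Mrps30, Mrpl47 and Mrpl12 had means of 27.8, 24.9, 20.7 and 9.20. The 3 relatives of bacterial protein S18 differed as well. Of them only Mrps18c was counted here as having a bacterial counterpart, while Mrps18a (mL66) and Mrps18b (mS40) were counted as mitochondria-specific. Mrps18c had 41.2 ± 18.3 RPKM, Mrps18a 22.8 ± 8.77 RPKM and Mrps18b 10.7 ± 7.93 RPKM. In CPM the order differed, with means of 45.4 for Mrps18c, 85.8 for Mrps18a and 22.7 for Mrps18b. Their gene lengths are 1076, 3690 and 2089 bases. Mrpl58, a peptidyl-tRNA hydrolase related to release factors and built into the large subunit, had 15.4 ± 8.01 RPKM. Mrps36, now known as a part of the oxoglutarate dehydrogenase complex, had 18.7 ± 9.84 RPKM, and 3 pseudogenes carry its name, so its reads are uncertain.

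**Figure D1:**
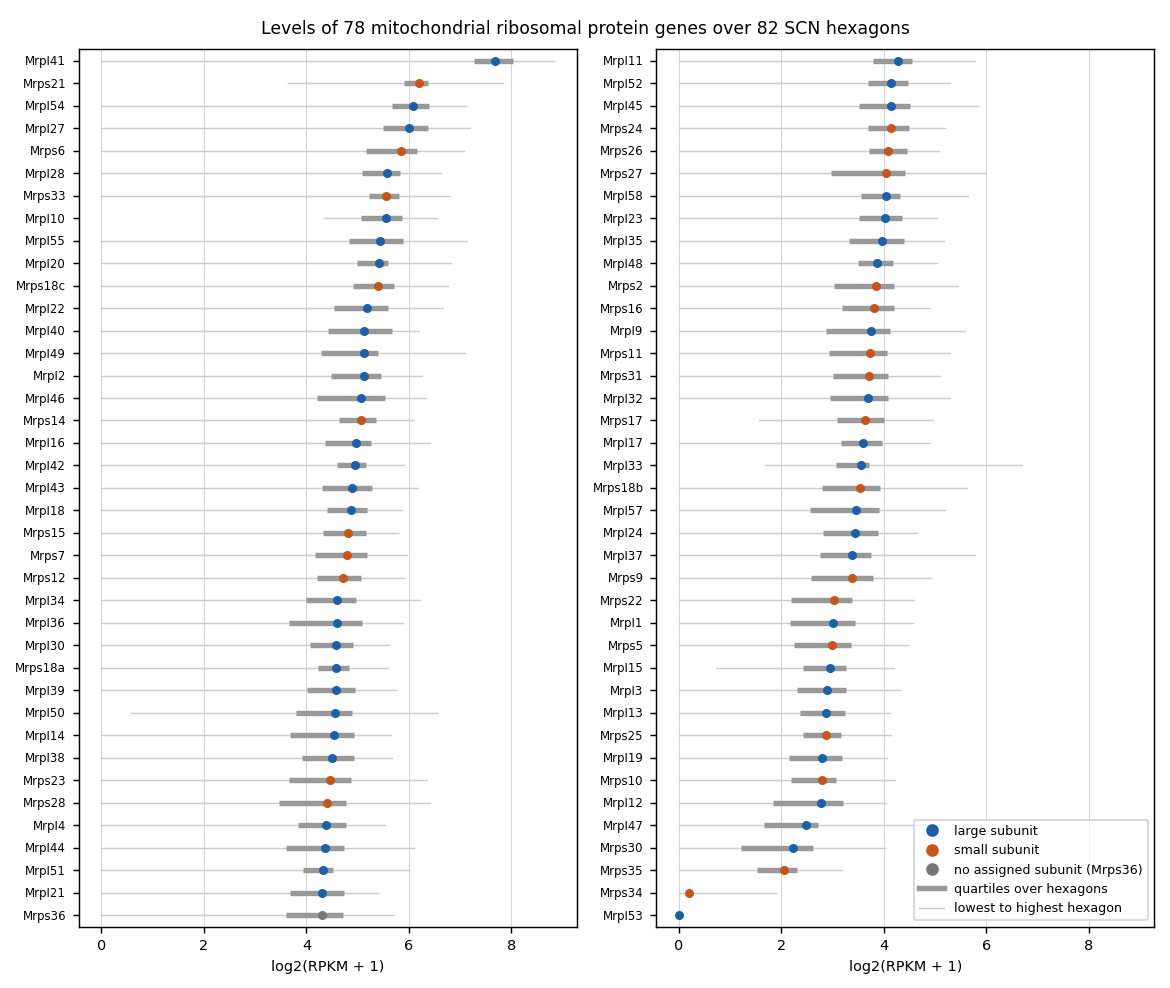
Level of each of the 78 genes on the log2(RPKM + 1) scale, ordered from the highest mean at top left to the lowest at bottom right; points are means over 82 hexagons, coloured by subunit, thick lines span the quartiles over hexagons and thin lines the lowest to the highest hexagon. Mrpl41 stands apart at the top with 206 RPKM, and Mrps34 and Mrpl53 at the bottom with 0.143 and 0 RPKM.

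The median member of the large subunit had 19.5 RPKM (51 genes), and that of the small subunit 14.5 RPKM (26 genes). Members with a bacterial counterpart had a median of 18.5 RPKM and mitochondria-specific ones 16.7 RPKM. Shorter genes had higher RPKM, with r = -0.60 between log2 mean RPKM and log2 gene length over 77 members with counts. The same correlation with CPM, which is not divided by length, was 0.21. Genes are not independent replicates, and RPKM holds the length in its denominator.

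The 2 lowest members share most of their exon bases with neighbouring genes. In GENCODE M21 on GRCm38, Mrpl53 (chromosome 6, 83109040 to 83109939, plus strand, 2 exon blocks) shares 88.0% of its exon bases with other genes, chiefly Gm42688 on the same strand. It had no count in any library. With 60993812 counts in all, a count of 0 allows up to 0.0492 CPM (3 counts), by counting error alone. Mrps34 (chromosome 17, 24895116 to 24897502, plus strand) shares 77.8% of its exon bases with Mapk8ip3 on the other strand and Nme3 on the same strand. It had 14 counts, spread over 11 libraries, and 0.143 RPKM. Mrps25 (chromosome 6, 92169525 to 92184033, minus strand) shares 69.8%, all with Nr2c2 on the other strand, and had 6.33 ± 3.11 RPKM. The sources used here do not say how reads in shared exons were counted. The level of these 3 genes is therefore uncertain, and the part of the overlap in their values was not tested.

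**Figure D2:**
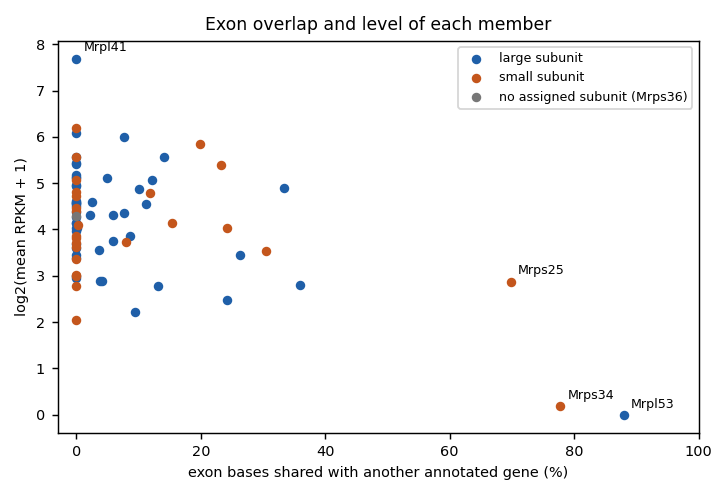
Each point is 1 of the 78 genes, with the percentage of its exon bases shared with another annotated gene on the x axis and log2(mean RPKM + 1) over 82 hexagons on the y axis. The 3 genes past 50% are Mrps25, Mrps34 and Mrpl53, and the last 2 lie at or near 0, below the 75 genes with less overlap, which had a median of 18.7 RPKM.

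An exon overlapped another annotated gene in 33 of 78 members (42.3%), against 29.6% of 21904 protein-coding genes of the count table. A protein-coding gene started head to head within 1000 bases of 18 members (23.1%), against 6.80% of those genes. Mrps12 (uS12m, of the decoding centre) starts 172 bases from Sars2, the mitochondrial seryl-tRNA synthetase. Mrpl54 starts 26 bases from Apba3, and Mrpl57 49 bases from Ska3. Mrpl46 and Mrps11, one from each subunit, overlap at their 5′ ends on opposite strands of chromosome 7, sharing 173 exon bases, and are not counted among those 18.

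The median biological coefficient of variation, the spread left after counting noise, was 0.523 for the 76 tested members, and 0.682 for all 11469 tested genes. Among members it ran from 0.291 to 0.889. Mrpl41 had 0.352 and Mrps21 0.331.

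The question put to each member was whether its level differs with the position of a hexagon. Slopes give the log2 change over 100 units of a coordinate. They were fitted with edgeR's quasi-likelihood test over all genes. A call is a Benjamini-Hochberg adjusted p under 0.05. Along both axes inside a section, no member passed.

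Along the dorsal-ventral coordinate, 0 of 76 members were called, where 0.793% of all 11469 genes were. Unadjusted p was under 0.05 for 3 members, where the share over all genes was 8.46%. The DESeq2 test also called 0. Member slopes lay between -0.17 and 0.10 with a median standard error of 0.06. Of them, 29 of 76 were above 0, where 51.5% of all genes were. The lowest p belonged to Mrps23, a mitochondria-specific protein of the small subunit. Its medians in hexagons of low, middle and high coordinate (27, 28 and 27 hexagons) were 38.2, 26.6 and 24.8 CPM, with ranges of 0 to 126, 1.51 to 70.9 and 0 to 72.9 CPM that overlap. Its slope was -0.17 ± 0.07 (SE, edgeR adjusted p = 0.423). Mrps6 had a slope of 0.10 ± 0.05 (edgeR adjusted p = 0.521) and Mrpl35 (bL35m) one of -0.13 ± 0.06 (edgeR adjusted p = 0.546).

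Along the medial-lateral coordinate, 0 of 76 members were called, where 1.38% of all genes were. Unadjusted p was under 0.05 for 4 members, where the share over all genes was 11.7%, and DESeq2 called 0. Slopes above 0 were found for 58 of 76 members, where 48.7% of all genes had one. The median slope was 0.07 for members and -0.004 for all genes, with a median standard error of 0.10 for a single member. With library set as a factor 0 members were called as well, and 53 slopes were above 0. Mrpl42, a mitochondria-specific protein of the large subunit, had medians of 95.2, 113 and 108 CPM in the hexagons of low, middle and high coordinate, and ranges of 0 to 202, 70.3 to 208 and 71.2 to 212 CPM. These overlap almost fully, and its slope was 0.15 ± 0.05 (edgeR adjusted p = 0.146). Mrps24 (uS3m) had a slope of 0.25 ± 0.10 (edgeR adjusted p = 0.256). Mrps11 (uS11m) had one of -0.24 ± 0.12 (edgeR adjusted p = 0.386).

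Slopes of respiratory chain genes lay mostly above 0 along this axis, while their calls depended on the libraries and on the model. Of 75 tested nuclear genes for the respiratory chain and ATP synthase, 72 slopes were above 0 with a median of 0.12. Of them edgeR called 15, all higher, and DESeq2 28. The count was 0 with library set as a factor, 2 without section 7 and 5 without section 6, while 72, 69 and 72 slopes were above 0 in those fits. Of 78 cytosolic ribosomal protein genes, 68 slopes were above 0 and edgeR called 5, with 0 under library set as a factor and 0 or 1 without section 3, 6 or 7. Of 12 mitochondrially encoded messenger RNAs, all slopes were above 0 and edgeR called 3, with 1 under library set as a factor and 1 to 7 when a section was left out. Over all genes the calls numbered 158, with 14 under library set as a factor and 31 without section 7. How much of these calls goes with position and how much with library set cannot be told apart.

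Markers of several cell types moved along the same axis. Of 10 SCN neuron markers, all slopes were below 0 and 3 were called (Rorb, Six3 and Rgs16), against 1 with library set as a factor (Rorb), 1 without section 6 (Rorb), 1 without section 7 (Rgs16) and 0 without section 3. Both tested markers of meningeal fibroblasts, Slc6a13 and Dcn, were called lower, with slopes of -2.01 ± 0.32 and -1.87 ± 0.41 (SE, edgeR adjusted p = 0.000135 and 0.00606), and the median hexagon had 0 CPM of each. The astrocyte marker S100b was called higher at 0.27 ± 0.07 (edgeR adjusted p = 0.0417), and the neuron marker Syt1 at 0.40 ± 0.08 (edgeR adjusted p = 0.00457). With library set as a factor Slc6a13 was called and the other 3 were not. Slopes were above 0 for 8 of 8 astrocyte and 8 of 8 oligodendrocyte markers, 4 of 6 neuron markers, 5 of 6 microglial and 2 of 5 endothelial markers. The part of these cell types in the slopes of the members and the lists was not tested. The difference between these lists and the members was not tested. The lists also differ in level, with a median gene at 44.8 CPM for the members, 159 CPM for the respiratory chain list and 216 CPM for the cytosolic ribosomal proteins.

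The 5-term test, which takes both coordinates, their squares and their product together, called 0 of 76 members, where 2.03% of all genes were called. Unadjusted p was under 0.05 for 2 members, Mrpl20 and Mrps6, where the share over all genes was 10.7%. Mrpl20 (bL20m) had an adjusted p of 0.119 with edgeR. DESeq2, which called 387 of all 11469 genes, called Mrpl20 alone of the members (adjusted p = 0.0284). Over the 18 alternatives its adjusted p ran from 0.0284 to 0.456. In the same edgeR test 10 of 75 respiratory chain genes, 6 of 78 cytosolic ribosomal proteins and 6 of 12 mitochondrially encoded messenger RNAs were called. With library set as a factor these counts were 1, 1 and 5. Without section 6 they were 1, 0 and 4, and without section 3 they were 3, 0 and 3 (of 11 tested).

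**Figure D3:**
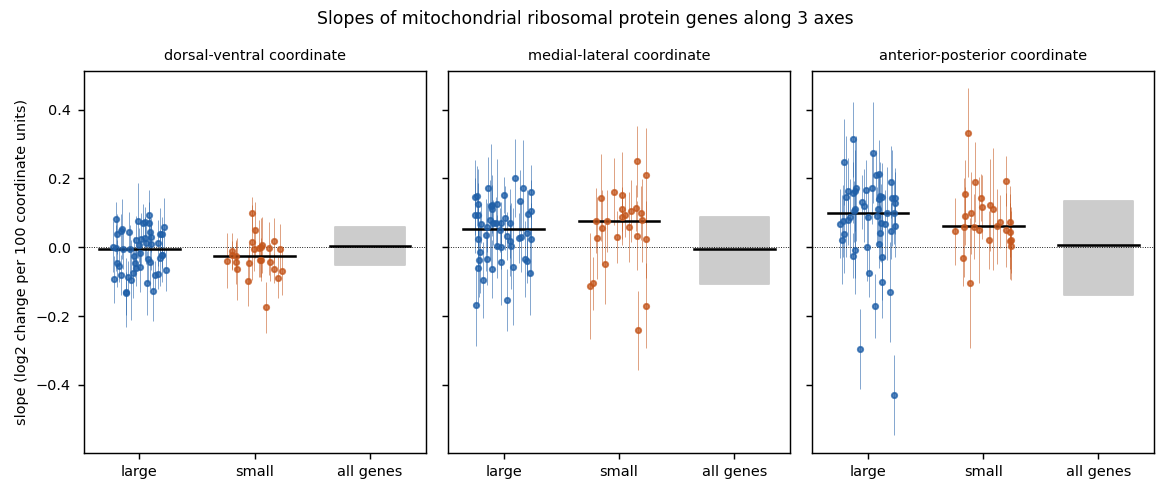
Slopes along the 3 coordinates, in log2 change per 100 coordinate units; points are tested members of the large (50 genes) and small (25 genes) subunit with standard errors, black lines are medians, and the grey box spans the quartiles of all tested genes. Most members lie above 0 along the medial-lateral (58 of 76) and anterior-posterior (65 of 76) coordinates, and 29 of 76 do along the dorsal-ventral coordinate. No single slope was called, and along the anterior-posterior coordinate position and library set cannot be told apart.

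The level of 3 members, Mrpl48, Mrps6 and Mrpl54, differed between sections. This was 3 of 76, where 4.06% of 11440 genes were called, so the share among members was near the background. Unadjusted p was under 0.05 for 11 members, where the share over all genes was 15.1%. DESeq2 called 5, namely these 3 with Mrpl41 and Mrps23, where it called 875 of all 11440 genes and gave 1775 no adjusted p. With library set as a further factor, 4 section terms stay separable from the sets, and edgeR then called 0 members and 0 of all 11440 genes. For the remaining section contrasts, that of section 8 among them, section and library set cannot be told apart.

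Mrpl48, a mitochondria-specific protein of the large subunit (chromosome 7, 100545751 to 100608301, minus strand), was highest in section 8. Its medians in sections 1 to 9 were 92.4, 142, 112, 108, 98.4, 84.9, 103, 196 and 159 CPM. The 6 hexagons of section 8 lay between 155 and 285 CPM, and the 14 of section 6 between 52.4 and 163 CPM. The 2 ranges overlap only from 155 to 163 CPM. The edgeR adjusted p between sections was 0.0192, and it ran from 0.00284 to 1.00 over 18 alternatives. The call was lost without section 6 (adjusted p = 0.0708) and without section 8 (adjusted p = 0.940), and with library set as a factor. Section 8 and the 1 hexagon of section 9 make up library set H. Mrpl48 shares 8.68% of its exon bases with Rab6a on the other strand, and Rab6a had a section adjusted p of 0.711 by edgeR. A pseudogene, Mrpl48-ps, carries its name. Astrocyte markers summed to 3385 to 5700 CPM in section 8, 2741 to 7545 CPM in section 7 and 1305 to 5049 CPM in section 6. Over 82 hexagons their log2 sum had r = 0.30 with Mrpl48, and 0.17 without the 5 shallow libraries. For oligodendrocyte markers these values were 0.54 and 0.05, and for neuron markers 0.38 and 0.07. The part of cell types in the result was not tested.

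Mrps6 (chromosome 16, 92058270 to 92112227, plus strand), the mitochondrial relative of bacterial S6, was highest in sections 5 and 6. Its medians in sections 1 to 9 were 31.1, 41.7, 38.97, 50.9, 82.4, 74.0, 63.2, 61.7 and 29.4 CPM. The 12 hexagons of section 5 lay between 41.9 and 134 CPM, and the 4 of section 1 between 15.5 and 44.3 CPM, with little overlap. The edgeR adjusted p was 0.0317, and 10 of 18 alternatives kept the call, with adjusted p from 0.000458 to 1.00. Leaving out section 9, among those 10, repeats the main fit, which does not use that section. It was lost when section 1, 2, 3, 5 or 6 was left out, when replicate 1 or replicate 3 of section 1 was, and with library set as a factor.

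Mrps6 shares exon bases on the same strand with Slc5a3, a myo-inositol transporter gene, and Gm49711, 19.9% of its own in GENCODE M21. The gene length in the deposited table is 1053, against 1533 exon bases in M21, so the authors' gene model was not the same. Slc5a3 had 436 ± 223 CPM (SD, n = 82) and differed between sections with an edgeR adjusted p of 9.9e-06. Its medians in sections 1 to 9 were 285, 301, 263, 365, 539, 632, 435, 368 and 275 CPM, high in the same sections as Mrps6. Across 82 hexagons, r between log2(CPM + 1) of Mrps6 and of Slc5a3 was 0.70. It was 0.64 within sections and 0.56 without the 5 shallow libraries. Reads of the shared bases cannot be told apart by gene, and their part in the section pattern of Mrps6 was not tested.

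Mrpl54 (chromosome 10, 81264713 to 81266934, minus strand) has no exon overlap. Its medians in sections 1 to 9 were 39.5, 50.1, 38.6, 50.7, 65.2, 76.9, 51.1, 58.4 and 57.7 CPM. The 14 hexagons of section 6 lay between 40.0 and 105 CPM, and the 12 of section 3 between 17.7 and 47.0 CPM, so the 2 ranges overlap in part. The edgeR adjusted p was 0.0440, with a range of 0.000715 to 1.00 over 18 alternatives. The call was lost when section 3, 5 or 6 was left out, and also when library set was added to the model.

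The summed level of the SCN neuron markers peaked in the same sections as Mrps6 and Mrpl54. A sum weights genes by their level, and Vip alone had 1779 ± 3591 CPM (SD, n = 82) with a highest hexagon of 16903 CPM. Between sections edgeR called 3 of the 10 markers, Vip, Grp and Prok2. The 10 markers had summed medians of 2582, 3194, 2334, 3156, 4869, 5768, 3119, 4222 and 3958 CPM in sections 1 to 9. Their log2 sum had r = 0.64 with Mrps6 and 0.58 with Mrpl54 over 82 hexagons, and 0.59 and 0.50 without the 5 shallow libraries. For Slc5a3, which shares exon bases with Mrps6, r was 0.62 over 82 hexagons and 0.54 without the shallow libraries. For Mrpl48, r was 0.20 and -0.18. In tissue pieces, fewer cells of a type and less RNA per cell cannot be told apart, and the part of the marker levels in these patterns was not tested.

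**Figure D4:**
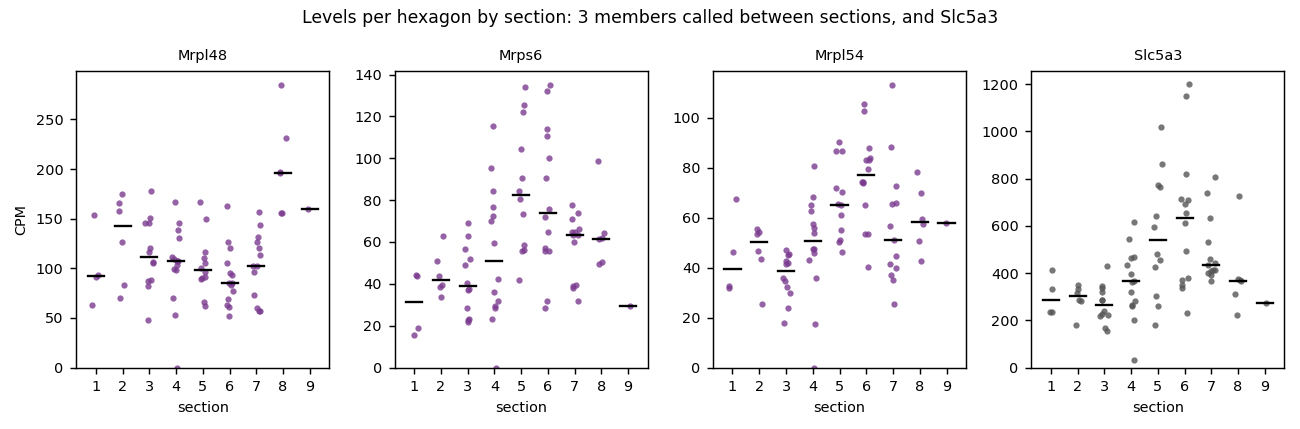
CPM of Mrpl48, Mrps6, Mrpl54 and the neighbour gene Slc5a3 in each hexagon by section (1 to 9, low to high anterior-posterior coordinate); points are hexagons and black lines are section medians. Mrpl48 is highest in section 8 (median 196 CPM), while Mrps6 and Slc5a3 are both highest in sections 5 and 6 and Mrpl54 in section 6.

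The anterior-posterior slope, fitted to counts summed per section over 8 sections, was called for 0 of 76 members, where 0.226% of 13268 genes were called. Unadjusted p was under 0.05 for 7 members, 5 with a positive and 2 with a negative slope, where the share over all genes was 15.6%. Slopes above 0 were found for 65 of 76 members, where 51.4% of all genes had one. The median slope was 0.09 for members and 0.01 for all genes. Slopes above 0 were also found for 74 of 77 respiratory chain genes, 71 of 78 cytosolic ribosomal proteins and 12 of 13 mitochondrially encoded messenger RNAs. Of these lists edgeR called 0 genes, with unadjusted p under 0.05 for 18, 6 and 5, and DESeq2 called mt-Cytb alone. The library sets run in order from A to H along this coordinate, and no fit of this slope took library set as a factor. Slopes along this axis and differences between library sets cannot be told apart.

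Mrpl1 (uL1m), of the stalk that guides tRNAs out of the ribosome, had a slope against the direction of most members. Its medians in sections 1 to 9 were 48.5, 50.6, 33.8, 24.9, 17.4, 30.4, 21.6, 8.25 and 45.2 CPM. The 6 hexagons of section 8 lay between 0 and 43.0 CPM and the 4 of section 1 between 16.4 and 81.3 CPM, and they overlap. Its slope was -0.43 ± 0.12 (edgeR adjusted p = 0.125), and DESeq2 called it as the 1 member on this axis (slope -0.43, adjusted p = 0.0146). DESeq2 called 482 of all 13268 genes there. Mrps36 had a slope of 0.34 ± 0.12 (edgeR adjusted p = 0.189), Mrpl40 0.31 ± 0.11 (edgeR adjusted p = 0.193) and Mrpl44 -0.30 ± 0.12 (edgeR adjusted p = 0.236).

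Summed over the family, the transcripts made up 3816 ± 525 CPM (SD, n = 82), with a lowest, median and highest hexagon of 623, 3826 and 4885 CPM. Section medians were 3680, 3690, 3808, 3456, 3687, 4029, 3970, 4210 and 3831 CPM in sections 1 to 9. The lowest hexagon was section 4 replicate 4, the library with 11905 counts. Next lowest was section 4 replicate 2, at 3056 CPM. The large-subunit sum was 2.27 times the small-subunit sum at the median. That ratio ran from 1.83 in section 7 replicate 12 to 4.42 in section 7 replicate 11, a library with 500432 counts, 8121 genes and 61 members detected.

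**Figure D5:**
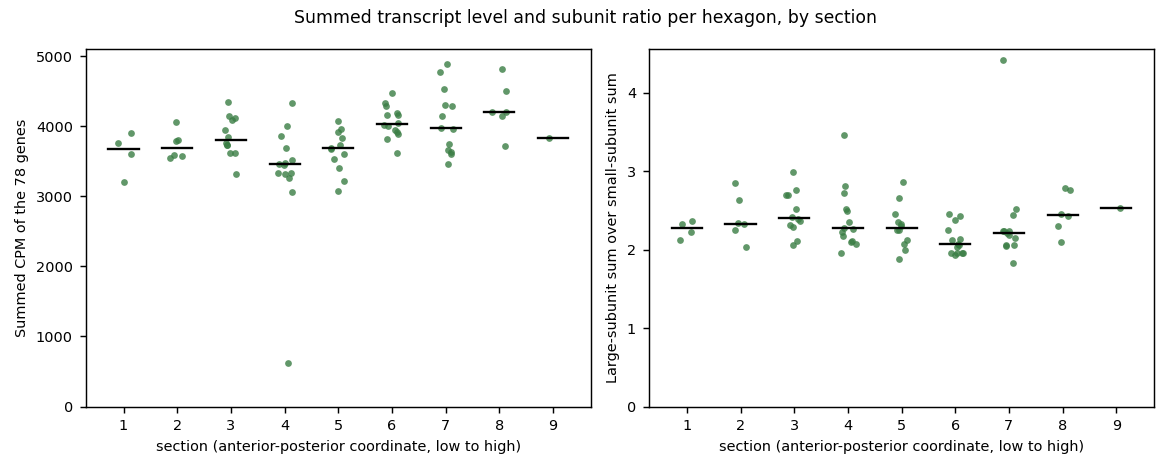
Summed CPM of the 78 genes (left) and ratio of the large-subunit to the small-subunit sum (right) in each hexagon by section; points are hexagons and black lines section medians. Section medians of the sum lie between 3456 CPM (section 4) and 4210 CPM (section 8), and single hexagons stand apart at 623 CPM in section 4 and at a ratio of 4.42 in section 7.

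The summed level followed that of the nuclear respiratory chain genes. Over 82 hexagons r was 0.69 and rho 0.77 between the log2 sums, r was 0.75 without the 2 hexagons farthest on the x axis, and 0.66 within sections. With cytosolic ribosomal proteins r was 0.58, rho 0.58 and 0.59 without 2 hexagons. With mitochondrially encoded messenger RNAs r was -0.04 and rho 0.54, and r was 0.64 without 2 hexagons, so the pooled value rests on those samples. Depth moved with the sum too, with r = 0.57 to log10 total counts over 82 hexagons and 0.28 over the 77 deeper ones. Over the 77 deeper hexagons r was 0.78 with respiratory chain genes, 0.63 with cytosolic ribosomal proteins and 0.67 with mitochondrially encoded messenger RNAs. With mitochondrial translation factors r was 0.74 over 82 hexagons and -0.07 over those 77. For assembly and ribosomal RNA modification genes these values were 0.66 and 0.13, and for aminoacyl-tRNA synthesis -0.09 and -0.16. For SCN neuron markers they were 0.20 and -0.30, and for neuron markers 0.54 and 0.35. All these sums come from the same libraries and are given as descriptions.

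The median r over 2850 pairs of members was 0.26 in 82 libraries and 0.03 without the 5 shallow ones. For pairs of all 11469 genes it was 0.10 and 0.02. For pairs of respiratory chain genes it was 0.36 and 0.28, and for cytosolic ribosomal proteins 0.27 and 0.25. Both of those lists have higher counts per gene, as given above, and the part of counting noise was not tested.

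Genes that act with the mitochondrial ribosome were put to the same tests. Over all genes edgeR called 0.793% along the dorsal-ventral and 1.38% along the medial-lateral coordinate, 2.03% in the 5-term test and 4.06% between sections. At these shares few or no calls fall to lists this short. Of 27 tested genes for assembly and ribosomal RNA modification, edgeR called 0 along the dorsal-ventral or medial-lateral coordinate, in the 5-term test or between sections. DESeq2 called 1 of them, Mtg2, along the medial-lateral coordinate, where it called 346 of all 11469 genes. In the same 4 tests both tools called 0 of 15 translation factors, with Tufm at 41.4 ± 24.6 CPM, and 0 of 4 genes for mitochondrial transcription, with Tfam at 43.2 ± 27.99 CPM (SD, n = 82). Of 4 tested subunits outside the naming rule none was called, and Dap3 (mS29) had 74.9 ± 34.4 CPM. Unadjusted p was under 0.05 for at most 2 genes of any of these lists in any of these 4 tests. Over all genes that share lay between 8.46% and 15.1%. Of 20 genes for mitochondrial aminoacyl-tRNA synthesis, Lars2, the leucyl-tRNA synthetase, had 2105 ± 1428 CPM (SD, n = 82), with a lowest, median and highest hexagon of 929, 1909 and 13933 CPM. The highest is section 2 replicate 1, and the next highest has 3920 CPM. Lars2 was called between sections (edgeR adjusted p = 0.00416, and 0.00403 without that hexagon), a call that was lost with library set as a factor (adjusted p = 0.228). Its anterior-posterior slope was -0.38 ± 0.06 (edgeR adjusted p = 0.0257). Without that hexagon, an alternative chosen after seeing the data, it was -0.25 (edgeR adjusted p = 0.0963), and without all of section 2 it was -0.31 (edgeR adjusted p = 0.0605). The call was also lost without section 6, 7 or 8.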

How the data were processed

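Per the labels' protocols, hexagons of stained SCN tissue were captured by laser, amplified with Smart-seq2 and tagmented with Tn5. The authors deposited whole-number counts for 27515 genes, and RPKM for 27055 of them. The deposited RPKM equal the counts over gene length and library total to within a relative deviation of 5.2e-15, so they are no independent evidence. bcl2fastq 2, STAR and the build GRCm38 are named in the submitters' processing notes. Which program counted the reads, with which annotation and strand setting, is not given in the sources used here. Members were joined to the counts by gene ID. The members and lists were chosen with earlier results of these data known.

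Counts were tested with edgeR 4.0.16 in R 4.3.3 (quasi-likelihood, robust, TMM) on genes that reached 10 counts in at least 10 libraries. Slopes inside sections used section as a factor and both coordinates. The test between sections, with both coordinates as covariates, used the 8 sections with 4 or more hexagons. The anterior-posterior slope used counts summed over each of those sections, with 10 or more counts in 4 or more of them. Section 9, with a single hexagon, adds nothing to slopes inside sections. Standard errors are the slope over the square root of F. CPM use TMM library sizes, and correlations use log2(CPM + 1). The fits were tested on simulated data. Gene positions are those of GENCODE M21, and promoter windows those of RefSeq. Alternatives were plain library sizes, no filter, no shallow libraries, DESeq2 1.42.0, library set as a factor, and each section, or each replicate of section 1, left out. For the anterior-posterior slope, neither library set as a factor nor leaving out a replicate of section 1 was run. Members named were those called, the 3 of lowest p per direction of each slope, the 2 of lowest p in the 5-term and section tests, the 5 highest and 5 lowest by RPKM, and 8 chosen for their role. Mrps25, Mrpl57, Slc5a3, Rab6a, Mtg2, Lars2 and the single marker genes were named after their values were seen.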

Additional observations from a re-analysis of the deposited data

Results flagged for a closer look

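Sections of 4 to 10 hexagons were checked for outlying hexagons. The values checked were the summed level, the ratio of the subunit sums, the number of members detected and the levels of members called between sections. Of 18 such groups, 3 held a hexagon whose gap to its neighbour was large for the range of its section, where chance gives about 1 in 20. Section 1 replicate 1 had 76 members detected, the highest of its section, and also the most counts there (948827). All other hexagons of that section had 75 members detected, and the chance rate does not cover such tied whole numbers. Section 8 replicate 6 had 68 members detected, the lowest of its section, with 497209 counts and the second highest summed level of all hexagons (4823 CPM). Mrps6 in section 8 replicate 4 was the highest of its section at 98.6 CPM.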

How the results depend on the processing

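No paired analysis was possible because replicate numbers were given in accession order and pair no hexagons. Members called along the 3 coordinates and in the 5-term test numbered 0 with any section left out, as in edgeR with all hexagons. The number was also 0 with each replicate of section 1 left out, runs that did not cover the anterior-posterior coordinate. Between sections the number ran from 0 to 3 over both kinds of runs. In the 5-term test DESeq2 called 1 member and the fit with no filter called 1, both times Mrpl20. Over all genes DESeq2 called 387 of 11469 there, with 4003 lacking an adjusted p. The fit with no filter called 3538 of 21396. Between sections DESeq2 called 5 and edgeR with library set added 0, where edgeR without it called 3. Over all 11440 genes these 3 fits called 875, 0 and 464. Along the anterior-posterior coordinate DESeq2 called 1. The cause of these changes was not tested. With sections or replicates left out, members with a slope above 0 numbered 26 to 35 along the dorsal-ventral and 52 to 58 along the medial-lateral coordinate. Along the anterior-posterior coordinate, where only sections were left out, they numbered 55 to 66. Without the shallow libraries, 50 of 76 medial-lateral slopes were above 0. Single named members were taken only in the test that named them. Direction and call held in 366 of the alternative values, a call was lost in 15 and gained in 3, and none reversed. The 366 include uncalled members that stayed uncalled. Only Mrpl48, Mrpl54 and Mrps6, between sections, had a call to lose, and they kept it in 15, 14 and 10 of 18 alternatives each. The calls of Mrpl41 and Mrps23 by DESeq2 between sections lie outside the counts of 366, 15 and 3. The median summed level was 3826 CPM, 3766 CPM with plain totals and 3427 CPM without the 3 members of most counts. Over all genes, DESeq2 called 482 along the anterior-posterior coordinate, where edgeR called 30. With a median member at 44.1 CPM, the depth of the shallow libraries gives few counts per gene, which limits what a single hexagon can show.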
